A study of Mus musculus with 18 samples.

Results

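A set of 30 genes around the transcription factor p53 was followed through every library of the series: p53 itself (Trp53), 3 genes whose products restrain it or switch its signalling off, and 26 genes known as its transcriptional targets. The members are the rows of the expression table that carry one of 30 listed symbols, a list drawn up with earlier results of these data known. All 30 were found among the 18264 genes of the table. RNA sequencing had measured mRNA levels in primary fibroblasts of the newborn mouse ventricle (NVCFs), in 18 libraries that form 6 groups of 3. In the knockdown arm, cells received a negative control siRNA (si-NC), siRNA against the cell cycle transcription factor Foxm1 (si-Foxm1), angiotensin II (Ang-II), a peptide hormone that drives cardiac fibroblasts towards matrix production, or the Foxm1 siRNA and angiotensin II together (si-Foxm1+Ang-II). The overexpression arm compared Foxm1 overexpression (OE-Foxm1) with its own negative control (OE-NC). The labels give no mouse strain, dose, duration, siRNA sequence or vector, and leave unstated whether control siRNA was given with Ang-II. They name no sort for fibroblasts and do not say whether the libraries of a group came from separate cultures or animals, so p-values measure the spread between these libraries, which may be technical.

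p53 is held at a low level in unstressed cells by Mdm2, a ubiquitin ligase that marks it for degradation, and by the related protein Mdm4, which masks its activation domain. DNA damage and other stress free p53 from both, and it then binds paired half-sites in DNA and activates genes for cell cycle arrest, DNA repair and apoptosis. Mdm2 is itself a p53 target, which closes a negative feedback loop, and the phosphatase Ppm1d (Wip1) is another target that ends the signal. The p53 mRNA is only part of this system, since p53 is regulated mainly through the stability and modification of its protein, which these libraries did not measure.

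FPKM values are fragments per kilobase of gene, scaled to library size, and fold changes are log2 differences of FPKM + 1 with their standard error, 3 libraries against 3, from limma fits across all tested genes. A gene was called where its Benjamini-Hochberg adjusted p was under 0.05. Libraries held 14989001 to 19343344 counted fragments, with OE-NC the smallest. Foxm1 read 10.4, 9.64 and 10.3 FPKM under si-NC and 6.06, 5.13 and 6.71 FPKM under its siRNA, and 4.23, 4.03 and 5.65 FPKM in Ang-II against 3.55, 3.36 and 3.03 FPKM in si-Foxm1+Ang-II. In OE-NC it held 15.7, 17.1 and 17.1 FPKM and in OE-Foxm1 399, 480.0 and 487 FPKM, so each library matched the direction of its label. The Ang-II libraries also lay below si-NC and overlapped si-Foxm1. Fibroblast markers such as collagens were abundant, with a summed level of 4264 to 5602 FPKM over 11 genes, but 15 cardiomyocyte markers summed to 12730.1 to 13745 FPKM under si-NC and to 6581 to 7025 FPKM in si-Foxm1. In si-Foxm1 against si-NC, 13 of those 15 and all 8 tested macrophage and leukocyte markers were called lower. In bulk libraries such as these, fewer cells of a type and less RNA per cell cannot be told apart.

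The promoters of the members were searched for the p53 consensus half-site, a palindrome of 10 bases with a central C and G, because the binding site of p53 is a pair of such half-sites. Windows from 250 bases before to 50 bases after the start were held in the RefSeq promoter table (GRCm38.p6, an older mouse build than the mm39 of the authors' alignment) for 23 of the 30 members. Perp, Pmaip1, Rrm2b, Tnfrsf10b, Trp53inp1, Xpc and Zmat3 had none. A half-site on either strand was present for 10 of the 23 members (43.5%). The share was 9.55% of 27025 genes with a window and 8.35% of the 9162 of them that were tested here. A gene counted if any of its windows held one, and several members had more than 1 window (4 each for Ak1 and Cd82). Each window has its own RefSeq start, from which distances are given. No member carried 2 consensus half-sites separated by at most 13 bases, which 0.0740% of all genes did. The 6 windows below belong to members on which the results turn, with the half-site in capitals and 15 flanking bases on each side, written along the gene's strand.
Trp53: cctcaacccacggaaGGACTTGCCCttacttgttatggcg
Mdm2: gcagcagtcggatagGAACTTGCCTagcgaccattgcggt
Ppm1d: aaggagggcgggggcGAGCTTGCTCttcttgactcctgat
Ccng1: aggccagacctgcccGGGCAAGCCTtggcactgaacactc
Sesn1: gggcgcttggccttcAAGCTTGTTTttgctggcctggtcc
Ei24: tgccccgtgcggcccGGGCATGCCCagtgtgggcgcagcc
These stretches lie at chr11:69580269-69580308, plus strand (Trp53), chr10:117710920-117710959, minus strand (Mdm2), chr11:85311107-85311146, plus strand (Ppm1d), chr11:40755447-40755486, minus strand (Ccng1), chr10:41887251-41887290, plus strand (Sesn1) and chr9:36797320-36797359, minus strand (Ei24). In Ccng1, the 10 bases before the half-site matched the consensus with 1 mismatch, the fewest among the 10 genes for bases directly next to a half-site. In Ei24 the half-site ended at the base before the start, and in Trp53 it began 75 bases before it. Aen, Bax, Ddit4l and Polk carried the other 4. A match describes the letters of the window and is not a site, and a window without one shows only that these letters are not in it. Most members were listed because they are known p53 targets, so nothing is read from their higher share.

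**Figure D1:**
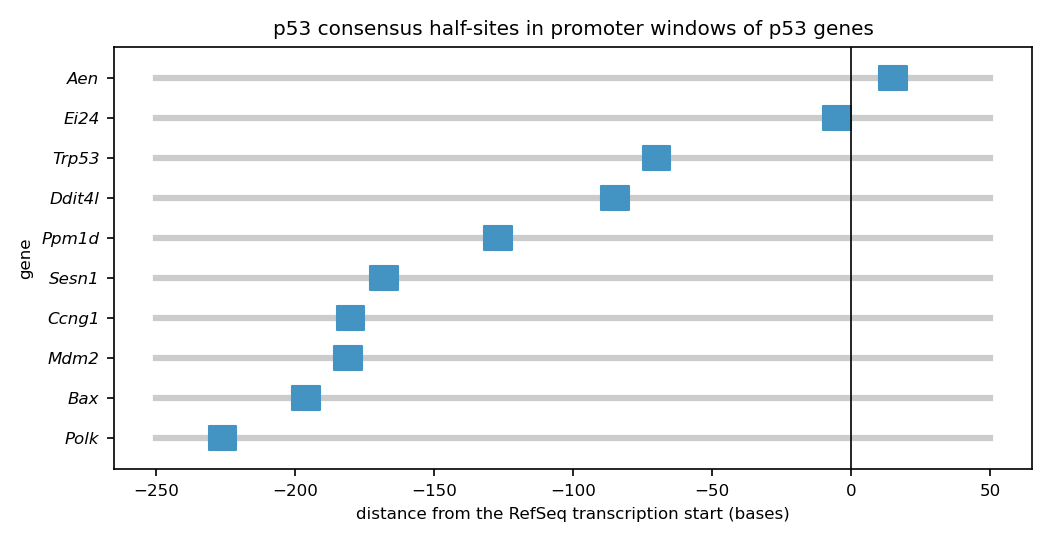
Position of the p53 consensus half-site in a promoter window of each of the 10 members that have one. The x axis is the distance from the RefSeq transcription start in bases, grey bars are the windows searched, from 250 bases before to 50 after the start, and blue boxes are the half-sites of 10 bases. The sites are spread over the windows, from 231 bases before the start (Polk) to 10 bases after it (Aen).

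With the siRNA against Foxm1, 3 of the 4 regulators rose, and of the 26 targets 14 fell and 5 rose. In si-Foxm1 against si-NC, 15 of the 30 members fell and 8 rose, where 17.2% of all 11180 tested genes were lower and 48.5% were higher. Groups did not overlap for 15 members that lay lower and 7 that lay higher, against 71.0% of all genes. The median log2 fold change of the members was -0.11, against 0.11 over all genes. Among those that rose were 3 of the 4 regulators (Trp53, Mdm4 and Ppm1d), joined by Plk2, Btg2, Cd82, Triap1 and Xpc. Those that fell included Mdm2, both called death receptors (Fas and Tnfrsf10b), 4 of 9 apoptosis genes (Ei24, Perp, Apaf1 and Aen) and 3 of 4 genes of repair and nucleotide supply. Growth control genes were split, with 4 of 8 lower (Sesn1, Gdf15, Zmat3 and Phlda3) and 2 higher. The balance over all genes followed the scaling between libraries: median-of-ratios scaling moved the median of all genes by -0.11, with 29.3% of genes lower and 26.4% higher, and 19 members were then lower and 7 higher. Relative to the median of all genes the members stood at -0.22 without scaling and at -0.23 with it.

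In cells under angiotensin the same siRNA gave a like picture. In si-Foxm1+Ang-II against Ang-II, 13 members fell and 6 rose, where 17.4% of all genes were lower and 44.0% higher, and the members' median was -0.11 against 0.09 over all genes. Groups did not overlap for 15 lower and 7 higher members, against 64.5% of all genes. These libraries are separate from those of si-Foxm1 and si-NC. Lower in both comparisons were 12 members, which is 12 of 15 without and 12 of 13 with angiotensin: Mdm2, Phlda3, Zmat3, Sesn1, Gdf15, Tnfrsf10b, Aen, Perp, Ei24, Apaf1, Polk and Ak1. Higher in both were 6 members, of 8 and of 6: Trp53, Mdm4, Ppm1d, Btg2, Plk2 and Cd82. No member was called in opposite directions. Over all genes, 0.921% were called for a siRNA effect that differed between the settings. The share of all genes called alike in both was not counted, so nothing particular to the members is read from this agreement. Median-of-ratios scaling gave 17 lower and 4 higher members in si-Foxm1+Ang-II against Ang-II, where it called 27.9% of all genes lower and 27.6% higher.

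Angiotensin II left the 4 regulators uncalled in control cells, where 7 targets fell and 4 rose. The angiotensin comparisons share the si-NC, si-Foxm1, Ang-II and si-Foxm1+Ang-II libraries with those of the siRNA, so their values are given side by side and not compared. In Ang-II against si-NC, 7 of 30 fell and 4 rose, where 29.2% of all genes were lower and 15.2% higher. The 7 were Ccng1, Sesn1, Btg2, Ddit4l, Ak1, Cd82 and Epha2, and the 4 were Fas, Apaf1, Pmaip1 and Plk2. Groups did not overlap for 6 lower and 3 higher members, against 52.9% of all genes. In si-Foxm1+Ang-II against si-Foxm1, 10 members fell and 5 rose, against 34.6% and 12.9% of all genes, and groups did not overlap for 10 lower and 5 higher members, against 57.0% of all genes. Ccng1, Sesn1, Btg2, Ddit4l, Ak1 and Cd82 fell and Fas, Apaf1, Pmaip1 and Plk2 rose there too, in libraries that the other angiotensin comparison does not use. The shares of members called were near those of all genes in both comparisons, and the members' medians were -0.01 and -0.04 against -0.03 and -0.07 over all genes. Scaling moved the balance of both. After median-of-ratios scaling 5 members were lower and 5 higher in Ang-II against si-NC, against 21.7% and 22.2% of all genes. In si-Foxm1+Ang-II against si-Foxm1, 6 members were lower and 9 higher after median-of-ratios scaling, against 20.3% and 22.1% of all genes.

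Whether the siRNA acted differently with and without angiotensin was tested as an interaction, and no member was called by limma, where 0.921% of all genes were. At an unadjusted p under 0.05 there were 6 members by limma and 6 by voom on recovered counts, which also called none. The share of all genes at that unadjusted threshold was not counted, so nothing particular to the members is read from the 6. The smallest adjusted p belonged to Trp53inp1 (-0.29 ± 0.09, adjusted p = 0.144), a stress protein that promotes p53-dependent death. Without Ang-II replicate 1 it was called (-0.37, adjusted p = 0.0495), and over the alternatives the smallest adjusted p of any member ran up to 0.256. A p that misses the threshold does not show that the siRNA effects were alike.

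**Figure D2:**
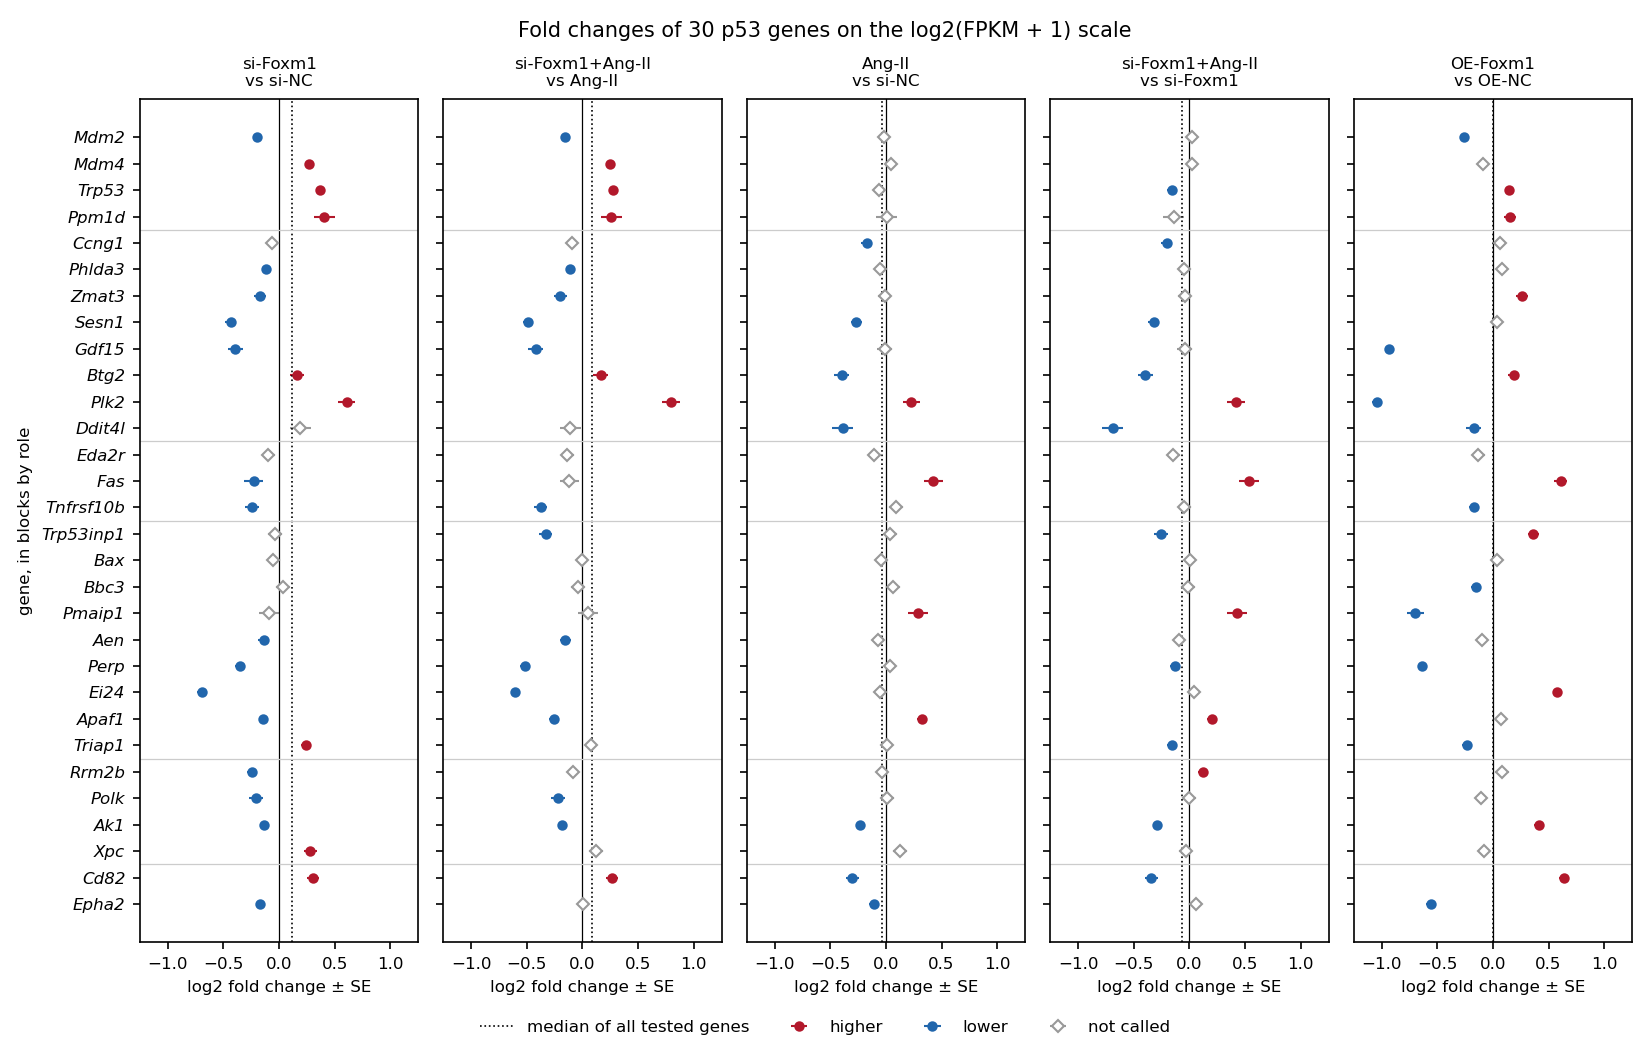
Log2 fold change (x axis, FPKM + 1 scale) of each of the 30 genes (y axis, in blocks by role) in the 5 comparisons, with standard errors as bars. Filled red and blue points passed the adjusted p of 0.05 (higher and lower), open diamonds did not, and the dotted line is the median of all tested genes. Both siRNA panels show 3 of the 4 regulators to the right and most targets to the left of the dotted line. In the overexpression panel Plk2 and Gdf15 lie farthest to the left and Cd82, Fas and Ei24 farthest to the right.

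With overexpression of Foxm1, members were called in both directions, in shares near those of all genes. In OE-Foxm1 against OE-NC, 10 of 30 fell and 9 rose, where 28.0% of all 11259 tested genes were lower and 27.1% higher, and the median of the members was -0.02 against a median of all genes that was nearer to 0. Groups did not overlap for 14 lower and 9 higher members, against 62.2% of all genes. Those that fell were Mdm2, Plk2, Gdf15, Ddit4l, Tnfrsf10b, Pmaip1, Perp, Triap1, Bbc3 and Epha2. Those that rose were Trp53, Ppm1d, Zmat3, Btg2, Fas, Trp53inp1, Ei24, Ak1 and Cd82. Knockdown and overexpression share no library, and 15 members were called in both si-Foxm1 against si-NC and OE-Foxm1 against OE-NC. Opposite calls were given to 6 of them: Ei24, Fas, Ak1 and Zmat3 fell with the siRNA and rose with overexpression, and Plk2 and Triap1 rose with the siRNA and fell with overexpression. The other 9 were called in the same direction, with Mdm2, Gdf15, Tnfrsf10b, Perp and Epha2 lower in both and Trp53, Ppm1d, Btg2 and Cd82 higher in both. Over the 5 comparisons, Plk2, Btg2, Ak1 and Cd82 were called in each, and Bax and Eda2r in none. Shares of all genes for these joint calls were not counted, so nothing particular to the members is read from them.

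**Figure D3:**
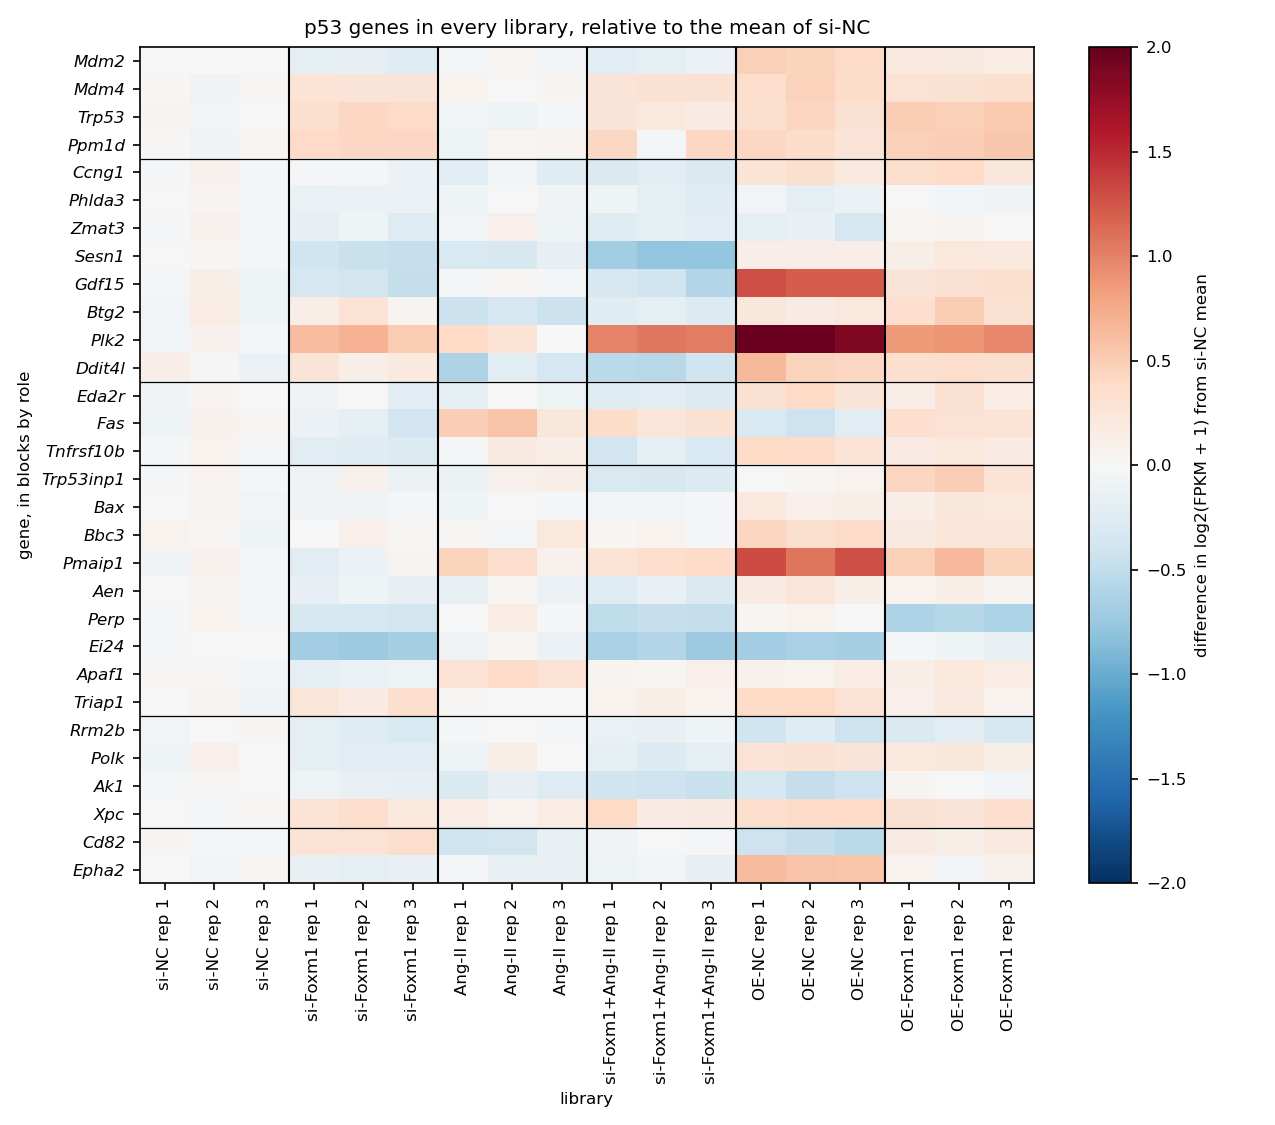
Level of each member (rows, in blocks by role) in each of the 18 libraries (columns), as the difference in log2(FPKM + 1) from the mean of si-NC; red is higher and blue lower, and the scale runs from -2 to 2. Ei24, Sesn1 and Perp are blue in all 6 libraries with the siRNA, where Plk2 and Trp53 are red. The OE-NC libraries stand apart from si-NC, with Plk2, Gdf15 and Pmaip1 deep red.

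Trp53, which encodes p53, held 31.97, 29.5 and 30.6 FPKM under si-NC and 38.6, 41.4 and 40.1 FPKM in si-Foxm1. In Ang-II it held 29.4, 28.5 and 30.1 FPKM and in si-Foxm1+Ang-II 37.1, 35.5 and 34.5 FPKM. All 6 libraries with the siRNA lay above all 6 without it, with angiotensin or not. The siRNA changed Trp53 by 0.37 ± 0.04, adjusted p = 2.23e-06, without and by 0.28 ± 0.04, adjusted p = 3.68e-05, with angiotensin. OE-NC held 38.5, 41.9 and 38.2 FPKM and OE-Foxm1 44.3, 42.9 and 44.5 FPKM, groups that did not overlap either, and Trp53 rose there by 0.15 ± 0.04, adjusted p = 0.008. Angiotensin on top of the siRNA changed it by -0.16 ± 0.04, adjusted p = 0.00382, a call that median-of-ratios scaling ended (-0.08, adjusted p = 0.0791).

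Mdm2, whose product degrades p53, went the other way with the siRNA. It held 16.1, 16.02 and 16.2 FPKM under si-NC and 13.9, 14.2 and 13.5 FPKM in si-Foxm1, and 15.7, 16.6 and 15.4 FPKM in Ang-II against 13.7, 13.97 and 14.7 FPKM in si-Foxm1+Ang-II. The 6 siRNA libraries lay below the other 6, and the log2 fold changes were -0.20 ± 0.04, adjusted p = 3.43e-04, and -0.16 ± 0.04, adjusted p = 0.00217. In the overexpression arm Mdm2 held 22.8, 22.4 and 21.4 FPKM in OE-NC and 18.5, 18.4 and 18 FPKM in OE-Foxm1, with no overlap (-0.26 ± 0.04, adjusted p = 1.53e-04). Mdm2 was thus lower than in the matched control in each of the 3 comparisons that targeted Foxm1.

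Mdm4 rose with the siRNA. Its levels were 11.2, 10.4 and 11.1 FPKM under si-NC and 13.4, 13.3 and 13.2 FPKM in si-Foxm1, and 11.5, 11.02 and 11.3 FPKM in Ang-II and 13.3, 13.6 and 13.7 FPKM in si-Foxm1+Ang-II. The siRNA groups lay above their controls without overlap (0.27 ± 0.04 and 0.25 ± 0.04). OE-NC held 14.3, 15.4 and 14.4 FPKM and OE-Foxm1 13.6, 13.7 and 13.8 FPKM, which did not overlap but did not pass the test (-0.09 ± 0.04, adjusted p = 0.0772). Mdm4 was called lower there with all 6 groups in one fit (-0.09) and with voom (-0.10). Ppm1d, the phosphatase that ends p53 signalling, held 5.95, 5.49 and 6.01 FPKM under si-NC and 8.01, 8.03 and 8.08 FPKM in si-Foxm1, a rise of 0.41 ± 0.10, adjusted p = 0.00192. In Ang-II it held 5.38, 6.03 and 6.14 FPKM and in si-Foxm1+Ang-II 8.11, 5.64 and 8.10 FPKM, where replicate 2 lay among the Ang-II libraries. That change of 0.26 ± 0.10 was called (adjusted p = 0.0288), but not without Ang-II replicate 1 (0.21) or without si-Foxm1+Ang-II replicate 1 (0.18) or 3 (0.19), and not with median-of-ratios scaling (0.17) or quantile normalization (0.16). OE-NC held 8.11, 7.83 and 7.11 FPKM and OE-Foxm1 8.44, 8.53 and 8.92 FPKM (0.15 ± 0.05, adjusted p = 0.0301), a call lost without OE-NC replicate 3 (0.10) or without OE-Foxm1 replicate 2 (0.16) or 3 (0.13). This call was also lost with no filter and with all 6 groups in one fit.

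**Figure D4:**
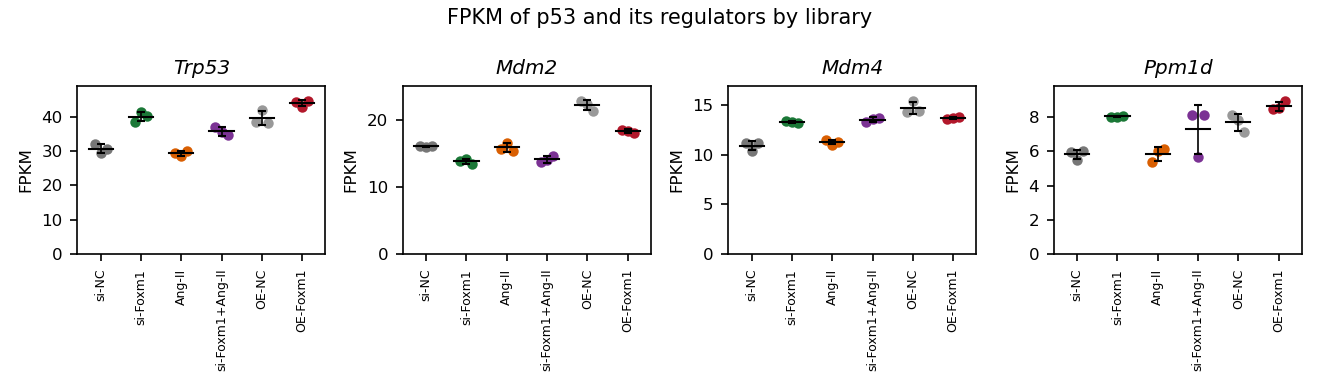
FPKM (y axes, from 0) of Trp53, Mdm2, Mdm4 and Ppm1d in the 6 groups (x axis). Points are libraries, horizontal lines group means and bars the SD of 3 libraries. Trp53 and Mdm4 are higher and Mdm2 is lower in both siRNA groups than in their controls, and 1 si-Foxm1+Ang-II library of Ppm1d (5.64 FPKM) lies apart from the other 2.

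Among the growth control targets, Sesn1 fell with the siRNA and with angiotensin. Sesn1 encodes a sestrin, which restrains the growth kinase complex mTORC1. It held 10.8, 11.3 and 10.6 FPKM under si-NC, 8.01, 7.73 and 7.65 FPKM in si-Foxm1, 8.58, 8.54 and 9.59 FPKM in Ang-II and 6.35, 5.84 and 5.94 FPKM in si-Foxm1+Ang-II. The group with both agents was the lowest, and it overlapped no other group. The siRNA gave -0.43 ± 0.05 and -0.49 ± 0.05 without and with angiotensin, and angiotensin gave -0.26 ± 0.05 and -0.32 ± 0.05 without and with the siRNA, of which adjusted p = 4.50e-04 was the largest p. The interaction of the agents was -0.06 ± 0.07, adjusted p = 0.763. OE-NC held 12.1, 11.99 and 12.03 FPKM and OE-Foxm1 11.9, 12.8 and 12.6 FPKM, which overlapped (0.04 ± 0.04, adjusted p = 0.407).

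Gdf15 encodes a secreted stress cytokine of the TGF-beta family and is a standard p53 target. It held 19.2, 21.3 and 18.3 FPKM under si-NC and 15.3, 14.9 and 13.8 FPKM in si-Foxm1, and 19.3, 19.8 and 19.02 FPKM in Ang-II and 15.4, 14.6 and 12.7 FPKM in si-Foxm1+Ang-II. It fell with the siRNA in both settings (-0.39 ± 0.06 and -0.42 ± 0.06) and was not called with angiotensin (-0.01 ± 0.06). In OE-NC, Gdf15 held 49.03, 46.7 and 46.5 FPKM, above every other library, and in OE-Foxm1 23.7, 24.5 and 24.7 FPKM. Its change of -0.94 ± 0.03, adjusted p = 1.76e-08, therefore ran from a control far above si-NC to a level a little above it.

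Plk2, a polo-like kinase of centriole duplication, showed the same high control with the opposite siRNA response. It held 15.97, 17.7 and 16.4 FPKM under si-NC, 26.04, 27.6 and 24.3 FPKM in si-Foxm1, 22.3, 20.4 and 16.7 FPKM in Ang-II and 34.2, 35.8 and 34.9 FPKM in si-Foxm1+Ang-II. The siRNA raised it by 0.61 ± 0.08, adjusted p = 1.56e-05, and by 0.80 ± 0.08, adjusted p = 1.47e-06, without overlap. Angiotensin raised it by 0.42 ± 0.08, adjusted p = 6.31e-04, in siRNA cells, and by 0.23 ± 0.08, adjusted p = 0.0302, in control cells. This last pair of groups overlapped, and the call was lost without si-NC replicate 1 (0.20) or 3 (0.22) or without Ang-II replicate 1 (0.14) or 2 (0.20). OE-NC held 68.5, 68.6 and 63.6 FPKM and OE-Foxm1 30.8, 31.6 and 33.5 FPKM, the largest fall among the members (-1.04 ± 0.04, adjusted p = 3.54e-08).

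Btg2, an antiproliferative adaptor of the mRNA deadenylase complex, was lower with angiotensin. It held 10.98, 12.8 and 10.7 FPKM under si-NC and 8.26, 8.88 and 8.27 FPKM in Ang-II (-0.40 ± 0.07, adjusted p = 2.65e-04), and 12.7, 14.2 and 11.97 FPKM in si-Foxm1 and 9.56, 9.96 and 9.26 FPKM in si-Foxm1+Ang-II (-0.40 ± 0.07, adjusted p = 2.60e-04). Neither pair overlapped. The siRNA calls of Btg2 were weak: 0.16 ± 0.07 in control cells was lost without si-NC replicate 1 (0.13) or 3 (0.12) or without si-Foxm1 replicate 1 (0.17) or 2 (0.10), and 0.16 ± 0.07 under angiotensin was lost without Ang-II replicate 1 (0.15) or 3 (0.15) or without si-Foxm1+Ang-II replicate 1 (0.16), 2 (0.14) or 3 (0.18). Both were also lost with median-of-ratios scaling (0.04 and 0.07), and both held with a replicate block. With overexpression Btg2 went from 13.5, 13.01 and 13.4 FPKM to 14.8, 16.7 and 14.4 FPKM (0.19 ± 0.05, adjusted p = 0.0118).

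Ddit4l (Redd2), another inhibitor of mTORC1, was a low member that also fell with angiotensin. It held 2.65, 2.28 and 2.06 FPKM under si-NC and 1.17, 1.88 and 1.62 FPKM in Ang-II (-0.39 ± 0.09, adjusted p = 0.00422), and 2.99, 2.62 and 2.79 FPKM in si-Foxm1 and 1.27, 1.27 and 1.53 FPKM in si-Foxm1+Ang-II (-0.69 ± 0.09, adjusted p = 4.67e-05). Neither pair of groups overlapped. OE-NC held 4.19, 3.52 and 3.43 FPKM and OE-Foxm1 3.15, 3.22 and 3.13 FPKM (-0.17 ± 0.07), a call lost without OE-NC replicate 1 (-0.10) or without OE-Foxm1 replicate 1 (-0.17), 2 (-0.18) or 3 (-0.17). This call was also lost with a filter at 0.1 FPKM or none, with all 6 groups in one fit and with voom. Ccng1, cyclin G1, was the most abundant member. It held 177, 194 and 177 FPKM under si-NC, 178, 179.8 and 167 FPKM in si-Foxm1, 157, 175 and 154 FPKM in Ang-II and 149.7, 156 and 149.9 FPKM in si-Foxm1+Ang-II. The siRNA groups overlapped their controls (-0.06 ± 0.05 and -0.09 ± 0.05, not called), and angiotensin changed Ccng1 by -0.17 ± 0.05 and -0.20 ± 0.05. Both of these calls ended with median-of-ratios scaling (-0.12 and -0.12), and the first also without si-NC replicate 2 (-0.13). OE-NC held 221, 228 and 209 FPKM and OE-Foxm1 233, 241 and 215 FPKM (0.07 ± 0.05, adjusted p = 0.248).

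Phlda3, an inhibitor of Akt at the membrane, and Zmat3, an RNA-binding zinc finger protein, changed less. Phlda3 ranged from 67.95 to 83.5 FPKM over all libraries and fell with the siRNA without and with angiotensin (-0.12 ± 0.04 and -0.11 ± 0.04). The Phlda3 calls were lost without si-NC replicate 2 (-0.09) and, under angiotensin, without Ang-II replicate 2 (-0.09) or without si-Foxm1+Ang-II replicate 3 (-0.08). Zmat3 ranged from 6.25 to 8.77 FPKM, fell with the siRNA (-0.17 ± 0.06 and -0.20 ± 0.06) and rose with overexpression by 0.26 ± 0.05. Its first siRNA call was lost without si-NC replicate 2 (-0.13) or without si-Foxm1 replicate 3 (-0.13).

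The death receptors did not move together. Fas, the receptor of Fas ligand, held 4.63, 5.40 and 5.17 FPKM under si-NC and 7.51, 7.99 and 6.06 FPKM in Ang-II, and 4.56, 4.34 and 3.67 FPKM in si-Foxm1 against 6.85, 6.17 and 6.48 FPKM in si-Foxm1+Ang-II. Both angiotensin groups lay above their controls without overlap (0.43 ± 0.09, adjusted p = 0.0012, and 0.54 ± 0.09, adjusted p = 1.95e-04). Fas also rose with overexpression, from 3.90, 3.56 and 4.24 FPKM in OE-NC to 6.65, 6.42 and 6.35 FPKM in OE-Foxm1 (0.61 ± 0.06, adjusted p = 1.36e-05). Its fall with the siRNA (-0.23 ± 0.09, adjusted p = 0.0328) was lost without si-NC replicate 2 (-0.19) or 3 (-0.21) or without si-Foxm1 replicate 3 (-0.15), and the siRNA change under angiotensin was not called (-0.12 ± 0.09).

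Tnfrsf10b, the mouse receptor of the death ligand TRAIL, held 12.5, 13.5 and 12.4 FPKM under si-NC and 10.95, 10.6 and 10.4 FPKM in si-Foxm1. In Ang-II it held 12.4, 14.6 and 14.02 FPKM and in si-Foxm1+Ang-II 9.58, 11.2 and 10.2 FPKM. The siRNA libraries lay below their controls in both settings (-0.24 ± 0.06, adjusted p = 0.00309, and -0.38 ± 0.06, adjusted p = 1.13e-04), and angiotensin gave no call. OE-NC held 17.2, 16.9 and 15.6 FPKM and OE-Foxm1 14.5, 14.9 and 14.5 FPKM (-0.17 ± 0.04, adjusted p = 0.00691). Eda2r, a receptor of the TNF family for an ectodysplasin, ranged from 10.3 to 17.04 FPKM over all libraries and was called in no comparison, with changes from -0.14 ± 0.06 to -0.10 ± 0.06. Both scalings called it lower with the siRNA (-0.22 with median-of-ratios scaling and -0.21 with quantile normalization). A replicate block and voom each called it lower with the siRNA under angiotensin, with angiotensin in siRNA cells and with overexpression.

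Ei24 gave the largest fall with the siRNA among the members, in both settings. Its product is a membrane protein of the endoplasmic reticulum that is needed for autophagy. It held 52.8, 53.8 and 53.8 FPKM under si-NC and 32.6, 31.96 and 33.3 FPKM in si-Foxm1, and 50.7, 54.7 and 49.4 FPKM in Ang-II and 33.7, 35.3 and 31.8 FPKM in si-Foxm1+Ang-II. The 6 siRNA libraries lay far below the other 6, and the changes were -0.70 ± 0.04, adjusted p = 1.23e-08, and -0.60 ± 0.04, adjusted p = 5.06e-08, with -0.05 ± 0.04 for angiotensin in control cells. With overexpression Ei24 rose from 32.6, 33.9 and 33.4 FPKM to 52.1, 50.4 and 48.1 FPKM (0.58 ± 0.04, adjusted p = 8.18e-07). The OE-NC libraries thus sat at the level of the siRNA groups and OE-Foxm1 at that of si-NC. An antisense gene (Gm26787) shares 324 exon bases with Ei24 in GENCODE M21, and whether the authors' counting used the strand is not given in the sources used here.

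Perp, a tetraspan membrane protein of cell contacts and apoptosis, fell in each comparison that targeted Foxm1. It held 153, 166 and 154 FPKM under si-NC and 126, 123 and 121 FPKM in si-Foxm1 (-0.35 ± 0.04, adjusted p = 1.08e-05). In Ang-II it held 159, 174 and 153 FPKM and in si-Foxm1+Ang-II 110.4, 114 and 113 FPKM (-0.52 ± 0.04, adjusted p = 2.98e-07). OE-NC held 161, 165 and 156 FPKM and OE-Foxm1 102, 106 and 101 FPKM (-0.64 ± 0.03, adjusted p = 1.93e-07). None of these pairs of groups overlapped. Angiotensin on top of the siRNA gave -0.13 ± 0.04, a call lost with median-of-ratios scaling (-0.05) and without si-Foxm1 replicate 1 (-0.12) or 2 (-0.13) or without si-Foxm1+Ang-II replicate 1 (-0.12).

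Pmaip1 (Noxa) and Bbc3 (Puma) encode small proteins that neutralise the survival members of the Bcl-2 family. Pmaip1 had the lowest mean of the members in si-NC, and 42 counted fragments in its poorest library. It held 1.04, 1.29 and 1.12 FPKM under si-NC and 1.92, 1.74 and 1.27 FPKM in Ang-II, which overlapped (0.29 ± 0.09, adjusted p = 0.0188), a call lost without si-NC replicate 1 (0.25) or 3 (0.28) or without Ang-II replicate 1 (0.21) or 2 (0.26). In siRNA cells angiotensin raised it from 0.851, 0.989 and 1.23 FPKM to 1.60, 1.75 and 1.80 FPKM without overlap (0.43 ± 0.09, adjusted p = 0.00162). OE-NC held 4.30, 3.49 and 4.23 FPKM, above every other library, and OE-Foxm1 2.0, 2.35 and 1.91 FPKM (-0.70 ± 0.08, adjusted p = 4.22e-05). Bbc3 ranged from 5.25 to 7.89 FPKM and was called only in the overexpression arm (-0.15 ± 0.05, adjusted p = 0.0171), where the call was lost without OE-NC replicate 1 (-0.13) or without OE-Foxm1 replicate 1 (-0.13). Bax, the pore-forming effector of the same family, ranged from 125 to 156 FPKM and was called in no comparison. Its change with the siRNA was -0.05 ± 0.03, which median-of-ratios scaling moved to -0.18 and called. A further gene model on the same strand (Gm45808) shares 192 exon bases with Bax in GENCODE M21.

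Apaf1, the scaffold of the apoptosome, rose with angiotensin and fell with the siRNA. It held 8.86, 8.84 and 8.33 FPKM under si-NC, 7.43, 7.86 and 8.05 FPKM in si-Foxm1, 10.8, 11.6 and 10.8 FPKM in Ang-II and 9.01, 8.93 and 9.41 FPKM in si-Foxm1+Ang-II. The Ang-II libraries were the highest and overlapped no other group of the arm. Angiotensin gave 0.32 ± 0.04, adjusted p = 3.81e-05, and 0.20 ± 0.04, adjusted p = 0.00148, and the siRNA -0.14 ± 0.04 and -0.26 ± 0.04, the former lost without si-Foxm1 replicate 1 (-0.11). OE-NC held 9.23, 9.20 and 9.68 FPKM and OE-Foxm1 9.66, 10.2 and 9.75 FPKM, which overlapped (0.07 ± 0.04, adjusted p = 0.186). Trp53inp1 held 13.9, 14.96 and 13.99 FPKM under si-NC, 13.5, 15.2 and 13.1 FPKM in si-Foxm1, 13.1, 15.2 and 15.7 FPKM in Ang-II and 11.4, 11.3 and 11.7 FPKM in si-Foxm1+Ang-II. The group with both agents lay below all the others, and it was called against Ang-II (-0.33 ± 0.06, adjusted p = 4.20e-04) and against si-Foxm1 (-0.26 ± 0.06, adjusted p = 0.00375), while si-Foxm1 against si-NC was not called (-0.04 ± 0.06). In OE-NC it held 14.3, 14.7 and 15.01 FPKM and in OE-Foxm1 19.6, 20.5 and 17.5 FPKM (0.36 ± 0.05, adjusted p = 2.45e-04).

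Triap1 encodes a small mitochondrial protein that protects damaged cells from apoptosis, and Aen an exonuclease active in dying cells. Triap1 ranged from 18.4 to 25.8 FPKM, rose in si-Foxm1 against si-NC (0.25 ± 0.04, adjusted p = 2.61e-04) and fell with overexpression (-0.23 ± 0.04, adjusted p = 0.00133). Its fall with angiotensin in siRNA cells (-0.16 ± 0.04) was lost with both scalings. Aen ranged from 12.4 to 18.3 FPKM and fell with the siRNA (-0.14 ± 0.05 and -0.15 ± 0.05). The Aen calls were lost without si-NC replicate 2 (-0.11) or without si-Foxm1 replicate 1 (-0.12) or 3 (-0.13), and under angiotensin without Ang-II replicate 2 (-0.10) or without si-Foxm1+Ang-II replicate 1 (-0.14) or 3 (-0.13).

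**Figure D5:**
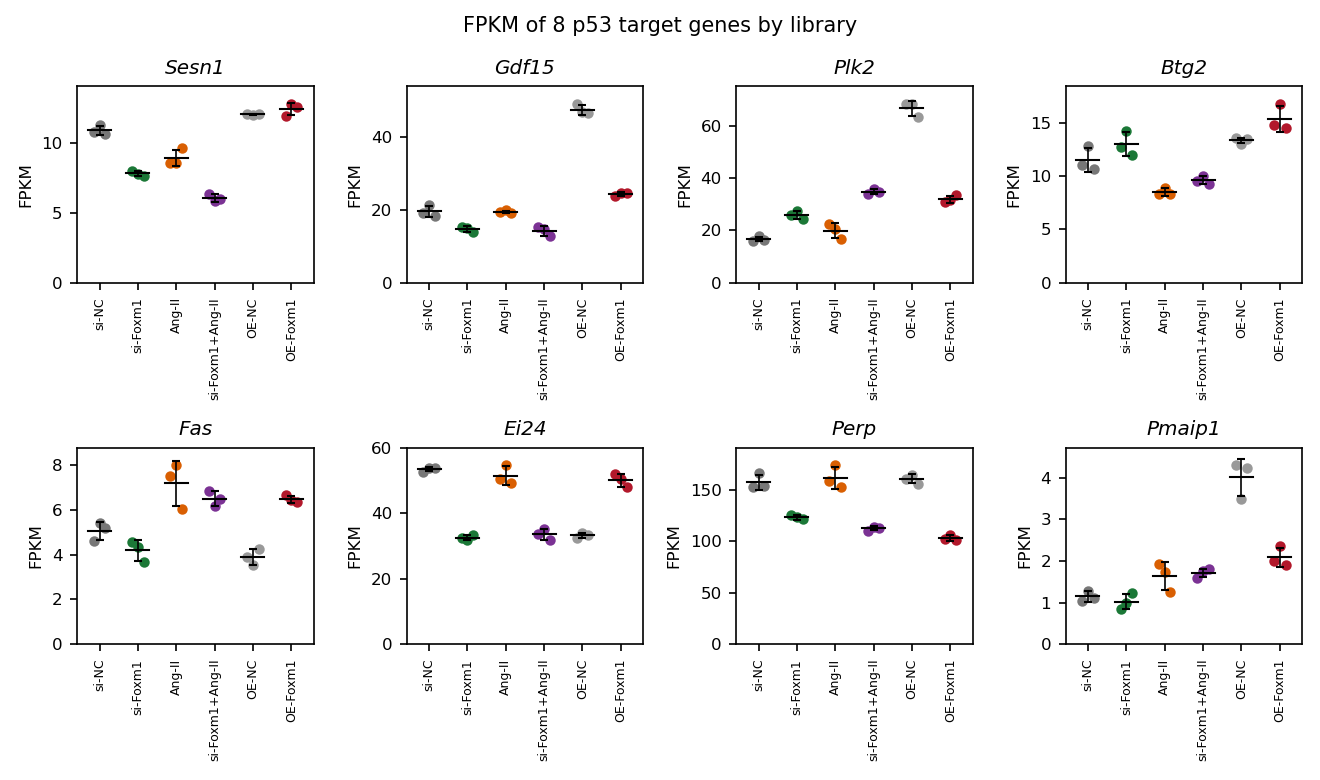
FPKM (y axes, from 0) of 8 p53 targets in the 6 groups (x axis). Points are libraries, horizontal lines group means and bars the SD of 3 libraries. Sesn1 is lowest in si-Foxm1+Ang-II, Ei24 is low in both siRNA groups and in OE-NC, and Gdf15, Plk2 and Pmaip1 are highest in OE-NC.

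Of the genes for repair and nucleotide supply, Ak1 was called in every comparison between groups, though not in the interaction. It encodes adenylate kinase, which balances ATP, ADP and AMP. It held 74.2, 76.1 and 74.8 FPKM under si-NC, 70.2, 67.8 and 66.9 FPKM in si-Foxm1, 61.6, 66.8 and 62.4 FPKM in Ang-II and 56.6, 55.9 and 54.8 FPKM in si-Foxm1+Ang-II. These 4 groups stood in that order without overlap, with angiotensin changes of -0.24 ± 0.03 and -0.29 ± 0.03 and siRNA changes of -0.13 ± 0.03 and -0.18 ± 0.03. OE-NC held 58.4, 53.8 and 56.2 FPKM and OE-Foxm1 77.95, 74.98 and 72.2 FPKM (0.41 ± 0.04, adjusted p = 1.26e-05). Rrm2b, the p53-induced subunit of ribonucleotide reductase, ranged from 3.53 to 5.26 FPKM and fell in si-Foxm1 against si-NC (-0.25 ± 0.04, adjusted p = 2.74e-04). Its rise with angiotensin in siRNA cells (0.12 ± 0.04, adjusted p = 0.0351) was lost without si-Foxm1 replicate 2 (0.12) or 3 (0.10) or without si-Foxm1+Ang-II replicate 1 (0.13) or 3 (0.10). An antisense gene (Gm49085) shares 734 exon bases with it in GENCODE M21. Polk, a polymerase that copies past damaged bases, ranged from 5.47 to 8.70 FPKM and fell with the siRNA (-0.21 ± 0.06 and -0.22 ± 0.06). Xpc, which recognises damage in nucleotide excision repair, ranged from 3.50 to 5.05 FPKM and was the member of this group that rose with the siRNA (0.28 ± 0.06, adjusted p = 0.00122). Under angiotensin the Xpc change was not called (0.12 ± 0.06).

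Cd82 and Epha2 are surface proteins, the first a tetraspanin that suppresses metastasis and the second a receptor for ephrins. Cd82 held 13.01, 12.3 and 12.1 FPKM under si-NC, 15.3, 15.3 and 16.2 FPKM in si-Foxm1, 9.18, 9.43 and 11.2 FPKM in Ang-II and 11.8, 12.4 and 12.1 FPKM in si-Foxm1+Ang-II. It rose with the siRNA (0.30 ± 0.06, adjusted p = 3.85e-04, and 0.26 ± 0.06, adjusted p = 0.00125) and fell with angiotensin (-0.30 ± 0.06, adjusted p = 6.88e-04, and -0.34 ± 0.06, adjusted p = 2.43e-04), each time without overlap. The group with both agents overlapped si-NC. With overexpression it rose from 9.06, 8.68 and 8.26 FPKM to 14.1, 13.6 and 14.3 FPKM (0.64 ± 0.04, adjusted p = 1.67e-06). Epha2 held 19.9, 18.9 and 20.2 FPKM under si-NC, 17.6, 16.99 and 17.6 FPKM in si-Foxm1, 19.1, 17.7 and 17.7 FPKM in Ang-II and 18.4, 18.8 and 17.5 FPKM in si-Foxm1+Ang-II. It fell with the siRNA in control cells (-0.17 ± 0.04, adjusted p = 0.0021) but was not called under angiotensin (0.01 ± 0.04), a difference that did not pass the test (0.17 ± 0.06, adjusted p = 0.175). Its fall with angiotensin (-0.11 ± 0.04) ended with both scalings and without si-NC replicate 1 (-0.10) or 3 (-0.09) or without Ang-II replicate 2 (-0.09) or 3 (-0.09). OE-NC held 31.05, 29.8 and 29.4 FPKM and OE-Foxm1 20.6, 18.9 and 20.97 FPKM (-0.55 ± 0.04, adjusted p = 3.40e-06).

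The control libraries of the overexpression arm differed from si-NC in several members. Mean levels in OE-NC and si-NC were 66.9 and 16.7 FPKM for Plk2, 47.4 and 19.6 FPKM for Gdf15, 4.01 and 1.15 FPKM for Pmaip1, 22.2 and 16.1 FPKM for Mdm2, and 33.3 and 53.5 FPKM for Ei24. Of the 19 members called with overexpression, the OE-Foxm1 mean lay closer to si-NC than the OE-NC mean did for 13, and farther from it for Trp53, Trp53inp1, Btg2, Perp, Fas and Ppm1d, a count made after these levels were seen. OE-NC enters both the calls and the distances compared, and the share over all genes was not counted. Nothing particular to the members is therefore read from this count. No test was run between the arms, since the treatment of the control and the arm cannot be told apart. Proliferation markers summed to 223 to 235 FPKM in OE-NC and 125 to 136 FPKM in si-NC, and cardiomyocyte markers to 7219.5 to 7676 FPKM and 12730.1 to 13745 FPKM; the part of either in these levels was not tested.

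The 3′ UTRs of the members were searched, on the sense strand, for 2 pairs of 7-base motifs (TCCATTA or CCATTAA, which share 6 bases, and AATAGGA or ATAGGAA, which also share 6). The motifs had been picked earlier from the siRNA comparisons of these same libraries, so the counts are a description and no independent evidence. Taking the longest 3′ UTR that GENCODE M21 lists for a gene, 11 of 30 members (36.7%) held at least 1, against 27.1% of 11082 tested genes. A longer 3′ UTR has more room for a motif, and the members' lengths ran from 150 bases (Gdf15) to 6692 bases (Zmat3). No count here was adjusted for length. Sites of 2 members that fell strongly and 1 that rose are shown with the motif in capitals.
Ei24: tgcttcatATAGGAActgaaggg
Sesn1: gcctctccTCCATTAAagatgacc
Ppm1d: aacctttcATAGGAAaaatactg
In Sesn1 the first pair of motifs overlap in 1 run of 8 bases. In si-Foxm1 against si-NC, the 11 members with a motif held 6 that fell and 3 that rose (median -0.14), and the 19 without one 9 that fell and 5 that rose (median -0.06). Under angiotensin the counts were 6 and 2 (median -0.15) and 7 and 4 (median -0.09). Gdf15, Perp and Tnfrsf10b fell with the siRNA in both settings and hold neither motif, and Mdm4 (3 sites), Xpc (2 sites) and Ppm1d (1 site) hold at least 1 and rose in si-Foxm1 against si-NC.

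Other genes of the pathway were counted from 2 further lists. Of 14 tested genes that act on p53 (kinases, cofactors, ligases and deubiquitinases), 9 rose and 1 fell in si-Foxm1 against si-NC, and 11 rose and 1 fell in si-Foxm1+Ang-II against Ang-II. Over all genes 48.5% were higher and 17.2% lower in the former and 44.0% and 17.4% in the latter. Median-of-ratios scaling reduced these to 5 higher and 2 lower, and 7 higher and 1 lower, where 26.4% and 27.6% of all genes were higher. The gene that fell in both was Hipk2, a kinase that marks p53 for apoptosis (-0.55 ± 0.05 and -0.44 ± 0.05). Usp10, a deubiquitinase that stabilises p53, rose with the siRNA (0.28 ± 0.04 and 0.32 ± 0.04) and fell with overexpression (-0.40 ± 0.04). Chek1, the checkpoint kinase, fell with angiotensin (-0.58 ± 0.06) and with overexpression (-0.59 ± 0.06) and rose with the siRNA under angiotensin (0.51 ± 0.06). With overexpression 1 of the 14 rose and 7 fell, and with angiotensin 1 rose and 3 fell in control cells and 2 rose and 4 fell in siRNA cells. The shares of all genes higher and lower were 27.1% and 28.0% with overexpression, 15.2% and 29.2% with angiotensin in control cells and 12.9% and 34.6% in siRNA cells.

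Of 19 tested further targets, 7 rose and 6 fell with the siRNA in control cells (6 and 7 by median-of-ratios scaling), whereas 5 rose and 5 fell under angiotensin (4 and 7 with that scaling). Angiotensin raised 5 and lowered 8 in control cells and raised 4 and lowered 9 in siRNA cells, where the same scaling gave 6 higher and 5 lower, and overexpression raised 8 and lowered 5. The shares over all genes in these comparisons are those given for the upstream genes, and nothing particular to the list is read from the counts. Cdkn1a, the p21 inhibitor of cyclin-dependent kinases and the best known arrest gene of p53, held 109, 117 and 115 FPKM under si-NC, 83.3, 83.5 and 78.9 FPKM in si-Foxm1, 91.3, 109 and 95.5 FPKM in Ang-II and 69.95, 77.1 and 66.4 FPKM in si-Foxm1+Ang-II. Its 3 libraries in each siRNA group lay below those of the control (-0.47 ± 0.06 and -0.46 ± 0.06), the direction of Mdm2, Sesn1 and Gdf15 and opposite to that of Trp53. Angiotensin gave -0.21 ± 0.06 and -0.20 ± 0.06, calls that ended with median-of-ratios scaling (-0.16 and -0.12), and overexpression -0.14 ± 0.03, adjusted p = 0.0034. The mitochondrial reductase Fdxr (0.53 ± 0.05) and Tigar, a regulator of glycolysis (0.51 ± 0.05), rose in si-Foxm1 against si-NC, and Igfbp3, which sequesters insulin-like growth factors, fell (-0.55 ± 0.05).

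Markers of other cells and of proliferation moved in the same comparisons as the members. The 15 cardiomyocyte markers summed to 9449.7 to 10347 FPKM in Ang-II and 5037 to 5194 FPKM in si-Foxm1+Ang-II, where 13 were lower and 2 higher, and none was at 0 in all libraries of a group. The 10 macrophage and leukocyte markers summed to 253 to 259 FPKM under si-NC and 129 to 160.3 FPKM in si-Foxm1, to 308 to 337 FPKM in Ang-II and 127 to 147 FPKM in si-Foxm1+Ang-II, and to 188 to 207 FPKM in OE-NC and 270.0 to 306 FPKM in OE-Foxm1. The 10 proliferation markers summed to 45.95 to 61.3 FPKM in Ang-II and 85.2 to 87.3 FPKM in si-Foxm1+Ang-II, with 9 higher, and all 10 were lower in Ang-II against si-NC. In si-Foxm1 against si-NC, 6 of the 10 proliferation markers were higher and 1 lower, where 48.5% of all genes were higher and 17.2% lower. Median-of-ratios scaling left 4 of these markers higher and 1 lower. Shares of all genes in the other comparisons are those given for the upstream genes. Of 8 endothelial markers, 5 were higher with the siRNA in each setting (1 was lower under angiotensin), their sum going from 77.4 to 84.8 FPKM under si-NC to 95.5 to 100.1 FPKM in si-Foxm1, and 6 and 7 were lower with angiotensin in control and in siRNA cells. Median-of-ratios scaling left 4 higher and 1 lower with the siRNA in each setting, and 6 and 5 lower with angiotensin. Of 11 fibroblast markers, 8 were higher and 1 lower with overexpression. With angiotensin 7 were lower in control cells and 8 in siRNA cells, and 2 (Col1a1 and Col1a2) were higher in each. The fibroblast sum was 4686 to 4891 FPKM under si-NC and 5262 to 5602 FPKM in Ang-II. Of 7 tested smooth muscle and pericyte markers 5 were lower with the siRNA in each setting, and of 5 epicardial markers 4 and 2. The part of these shifts in the changes of Mdm2, Sesn1, Gdf15, Ei24 and the other members was not tested.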

How the data were processed

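mRNA levels of 18 libraries were taken from 1 deposited table of FPKM values for 18264 genes, which the authors made from reads aligned to mm39; per the submitters' processing notes they used fastp, HISAT2 and HTSeq, with versions not given in the sources used here. Per the labels' protocols, RNA of sufficient integrity went into stranded poly(A) libraries. The annotation and the use of strand in counting were not stated there. Because FPKM values were whole multiples of what 1 fragment is worth, counts were recovered for 17960 genes (tolerance 0.02 of a fragment). They gave each library's depth, and 3 counts on 1 kb equalled 0.155 to 0.200 FPKM.

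Genes with a mean of 1 FPKM or more were fitted as log2(FPKM + 1) with limma 3.58.1 (R 4.3.3, trended variance), 12 knockdown-arm libraries in one fit and 6 overexpression libraries in another, with Benjamini-Hochberg adjustment over all genes of a fit. All 30 members passed this filter in both. The script was tested on simulated data. Alternatives were pseudocount 0.1, a filter at 0.1 FPKM or none, quantile and median-of-ratios scaling, a replicate block, voom on recovered counts, other sets of libraries in the fit and each library left out.

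Members and gene lists (other p53 regulators and targets, cell type markers) were chosen with earlier results of these data known. Values in every library were given for Trp53, Mdm2, Mdm4, Ppm1d, Ccng1 and each member called in a comparison with an absolute log2 fold change of at least 0.3 and no overlap of groups, and the rest by range and counts. Of the other lists, Cdkn1a and up to 3 genes with the smallest p in a comparison were named. Promoter windows came from RefSeq (GRCm38.p6) and 3′ UTRs from GENCODE M21 of the same build, matched by symbol. Tables were handled with Python 3.11.15, pandas 2.3.3, numpy 2.4.6 and matplotlib 3.10.9.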

Additional observations from a re-analysis of the deposited data

How the results depend on the processing

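Over 2820 values of single members under the alternatives, 89 calls were lost, 49 were gained and none was reversed, while 99 uncalled values changed sign. The losses named for single members above are not complete, since other filters and other sets of libraries in the fit ended some of those calls too. Of the 87 calls, 65 held under every alternative: 17 of 23 in si-Foxm1 against si-NC, 7 of 11 in Ang-II against si-NC, 15 of 19 in si-Foxm1+Ang-II against Ang-II, 10 of 15 in si-Foxm1+Ang-II against si-Foxm1 and 16 of 19 in OE-Foxm1 against OE-NC. In si-Foxm1+Ang-II against si-Foxm1, 9 members were higher and 6 lower after median-of-ratios scaling, where 5 and 10 were called without it. With 1 library left out, members called higher in Ang-II against si-NC numbered 2 to 4 (2 without si-NC replicate 1, si-NC replicate 3 or Ang-II replicate 2), and those called lower in the interaction 0 to 1 (1 without Ang-II replicate 1); the cause was not tested.

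The labels do not say whether replicate numbers pair the samples. Correlations of same-numbered deviations ran from -0.04 to 0.18, and the largest (0.18, 0.17, 0.15 and 0.11) all belonged to replicate 2. A shared replicate effect is therefore not excluded. With a replicate block, members called higher and lower numbered 8 and 15 (si-Foxm1), 4 and 7 (Ang-II), 6 and 15 (si-Foxm1+Ang-II against Ang-II), 5 and 12 (si-Foxm1+Ang-II against si-Foxm1), 0 and 0 (interaction) and 10 and 12 (overexpression). Of all 11180 genes tested in the knockdown arm, the block called 5463 higher and 1948 lower (si-Foxm1) and 1703 and 3305 (Ang-II). It called 4958 and 1987 in si-Foxm1+Ang-II against Ang-II and 1462 and 3935 in si-Foxm1+Ang-II against si-Foxm1. With overexpression it called 3066 higher and 3144 lower of 11259 genes. Over all genes the interaction gave 45 higher and 58 lower, 112 and 117 with voom on recovered counts, and 62 and 75 with the block. Low members such as Pmaip1 and Ddit4l have the coarsest levels, and adding 1 before the log understates their changes.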
